A study of Mus musculus with 12 samples.

Results

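Back-splicing joins a downstream splice donor to an upstream splice acceptor and closes the exons between them into a ring. The 58 host genes described here each give rise to 15 or more different circular RNAs (circRNAs). They were chosen by joining the 2 deposited circRNA tables, keeping circRNAs assigned to a single host gene, and counting unique circRNAs per host. That left 58 of 4455 single hosts, which hold 1116 of 13258 single-host circRNAs (13474 with those of several hosts). Membership used the listing of circRNAs and not their read counts, but a host that is read more has more chances of being listed.

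The data come from 4 mouse cell lines with 3 libraries each. 4T1 is a breast cancer line and Eph4-ev a breast epithelial line, and both were measured in 1 table, here called the mammary table. B16F10 is a melanoma line and Melan-a a line of melanocytes, and both were measured in the melanocyte table. All libraries were made from RNA treated with RNase R, which digests linear RNA, no line received another treatment named in the labels, and each tumour or non-tumour state rests on 1 line, so that state and whatever else sets the lines apart cannot be told apart. The title of the series asks about circRNAs specific to tumours, and the comparisons below set each tumour line against the non-tumour line of its lineage.

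A circRNA is recognised by reads across its back-splice junction, which no linear transcript of the gene contains. Because 1 donor can be joined to different upstream acceptors, and 1 acceptor to different downstream donors, a gene can give a family of rings. These share exons and differ at 1 or both ends. Rings lack free ends and resist exonucleases, which makes them stable in cells, and some that span a start codon or an open reading frame have been studied as templates for translation.

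The identity of such isoforms lies in the junction sequence. Those below belong to hosts that passed a test of isoform shares between lines or whose most read circRNA differed between the lines of a lineage, and they are restricted to junctions in coding exons. The letters are 20 bases of the donor exon in lower case, then 20 bases of the acceptor exon in capitals, from GENCODE M21 transcripts (GRCm38, which is mm10). Exon numbers are those of 1 reference transcript per host. Isoforms that share an acceptor exon have the same capitals, and isoforms that share a donor exon have the same lower case letters.

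The isoforms of Tns3 and Pik3c2a that follow include pairs closed on 1 acceptor.
Tns3 exons 14 to 16, chr11:8518199-8519570, minus strand: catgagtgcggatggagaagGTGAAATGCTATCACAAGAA
Tns3 exons 14 to 17, chr11:8492093-8519570, minus strand: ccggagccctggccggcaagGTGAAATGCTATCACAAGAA
Tns3 exons 18 to 20, chr11:8478225-8479665, minus strand: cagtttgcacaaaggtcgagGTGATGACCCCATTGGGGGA
Pik3c2a exons 16 to 21, chr7:116359996-116368189, minus strand: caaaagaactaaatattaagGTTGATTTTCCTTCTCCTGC
Pik3c2a exons 16 to 22, chr7:116358636-116368189, minus strand: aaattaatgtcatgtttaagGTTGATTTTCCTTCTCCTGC
Pik3c2a exons 6 to 9, chr7:116387844-116391393, minus strand: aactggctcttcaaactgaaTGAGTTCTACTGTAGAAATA
Those of Dennd1b and Arhgap10 include pairs closed on 1 donor.
Dennd1b exons 4 to 9, chr1:139040000-139062971, plus strand: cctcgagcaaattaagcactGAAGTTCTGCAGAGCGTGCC
Dennd1b exons 6 to 9, chr1:139053346-139062971, plus strand: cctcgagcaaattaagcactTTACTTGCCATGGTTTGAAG
Dennd1b exons 10 to 14, chr1:139081173-139110485, plus strand: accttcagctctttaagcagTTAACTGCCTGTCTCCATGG
Arhgap10 exons 14 to 18, chr8:77344640-77365160, minus strand: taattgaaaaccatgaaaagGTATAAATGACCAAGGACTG
Arhgap10 exons 16 to 18, chr8:77344640-77351672, minus strand: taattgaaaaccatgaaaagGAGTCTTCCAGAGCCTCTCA
Those of Trio share no end, and that of Agap1 had reads in Melan-a alone among the 4 lines.
Trio exons 2 to 3, chr15:27912620-27919291, minus strand: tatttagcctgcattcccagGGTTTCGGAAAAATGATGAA
Trio exons 10 to 11, chr15:27871161-27881429, minus strand: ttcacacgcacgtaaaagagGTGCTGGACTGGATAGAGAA
Agap1 exons 6 to 8, chr1:89634160-89665189, plus strand: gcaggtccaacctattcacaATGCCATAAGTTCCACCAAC

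Hotspot hosts are long genes of many exons. The median gene span was 222200 bp in hotspot hosts and 55250 bp in the other single hosts, and the median number of exons in the longest annotated transcript was 25 against 14. Across 4448 hosts, Spearman's rank correlation between the number of circRNAs and the number of exons was 0.325, with gene span 0.443 and with junction reads 0.724, and these hosts share libraries and depth. Hotspot hosts were also read more, with a median of 404 reads over the 12 libraries against 16, from 118 in Dock1, a guanine nucleotide exchange factor gene, to 3215 in Tns3, which encodes the focal adhesion protein tensin 3. Host reads are sums over circRNAs, so part of this gap and of the correlation with reads is built in by counting circRNAs. Per listed circRNA the median was 25.2 reads in hotspot hosts and 8 in the others.

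Arhgap10, a GTPase-activating protein gene, had the most circRNAs, 35. Rere, a transcriptional corepressor gene, had 34. Ehmt1, a histone H3 lysine 9 methyltransferase gene, and Vps13b, a lipid transfer protein gene, had 28 each, and Ptk2, which encodes focal adhesion kinase, had 27. Dtnb, a gene of the dystrophin-associated complex, had 26. Birc6, a ubiquitin ligase gene, and Tasp1, a protease gene, had 25 each. Ckap5, a microtubule polymerase gene, Nbas, and Stag1, a cohesin subunit gene, had 23 each. At the threshold, 13 hosts had exactly 15 circRNAs, among them Nf2, Stk39 and Tns3, and 7 hosts just below it had 14, among them Hspa4 and Tnks2.

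**Figure D1:**
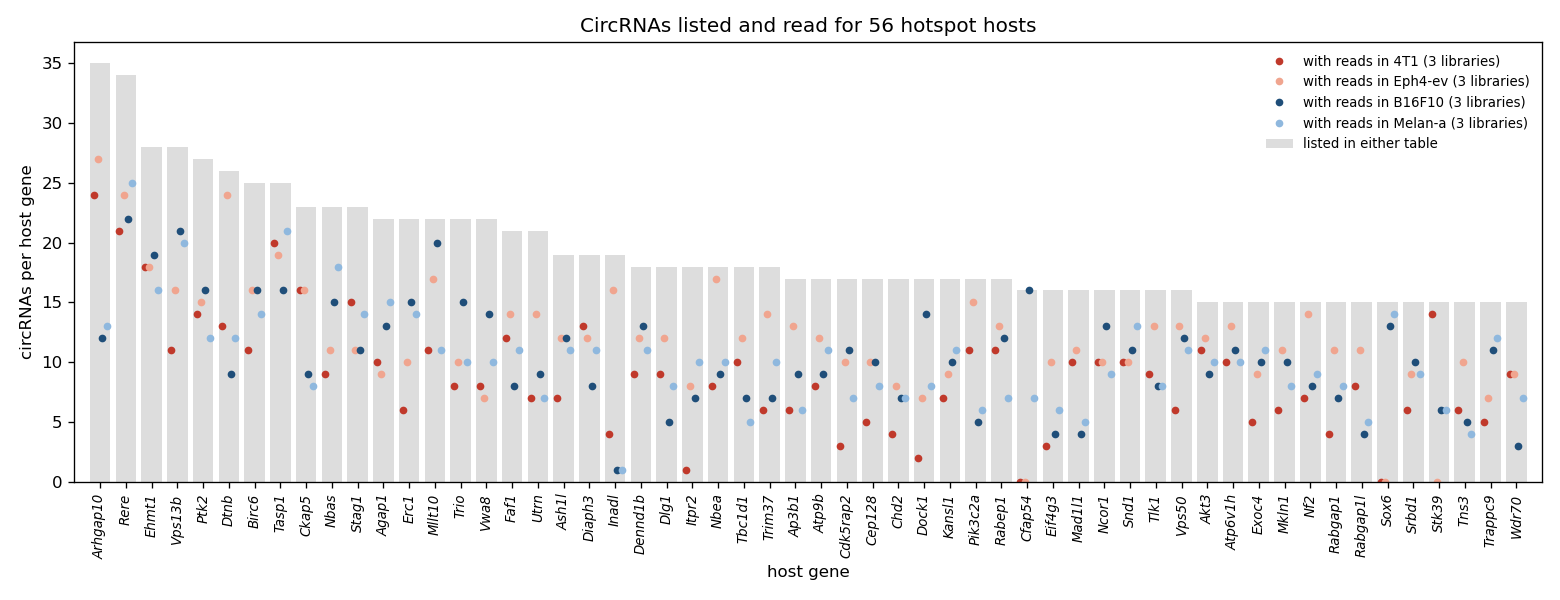
CircRNAs per host for 56 hotspot hosts. Grey bars give the circRNAs listed in either table, and coloured points the number with at least 1 read over the 3 libraries of each line. Arhgap10 stands highest with 35, and Stk39 in Eph4-ev stands at 0. Cfap54 and Sox6 are drawn at 0 in both mammary lines because the mammary table does not list their circRNAs.

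Most of these isoforms were rare. Of the 1116 circRNAs listed, 1058 had reads in any library, with a median of 8 reads over 12 libraries, and 619 had fewer than 10. All 4 lines had reads of 241, while 355 had reads in 1 line, and 65 had reads in all 12 libraries. The most read circRNA of each host held 39.2% of the 42127 reads of these hosts. The rest was spread thinly, so the absence of a given ring from a line was often not detectable at this depth.

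The rings reuse a limited set of splice sites. The median host had 17.5 circRNAs built from 9 acceptors and 10 donors. In 32 hosts at least 5 circRNAs shared 1 acceptor, and in 16 hosts at least 5 shared 1 donor. In Tasp1, 12 of 25 circRNAs began at 1 acceptor, that of exon 2, which held 87.0% of the host's reads. In Tlk1, a kinase gene, 10 of 16 shared an acceptor with 88.0% of the reads. Rere, by contrast, had at most 9 of 34 circRNAs on 1 acceptor, and its most read acceptor held 28.2% of reads.

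Compared with circRNAs of other hosts, a smaller share of those of hotspot hosts began at exon 2 or held the start codon. Exon 2 was the first exon in 14.8% of 1092 mapped hotspot circRNAs and in 31.3% of 11910 others. The start codon lay within 10.99% against 15.5%, and 87.6% against 82.4% were made of coding exons alone. Single-exon rings were 1.65% against 4.48%. The median ring had 4 exons and 552 nt in hotspot hosts and 3 exons and 476 nt elsewhere. Among rings of coding exons, the spliced length was a multiple of 3 in 41.7% of 957 in hotspot hosts and in 38.6% of 9819 elsewhere. These shares are descriptions without a test, because rings of 1 host share exons. Hosts chosen for 15 or more different rings must use several splice sites, and they have more exons than other hosts. The part of either in these differences was not tested.

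Total junction reads per library ran from 15572 to 56649, with 4T1 replicates 1 and 2 and the B16F10 libraries the shallowest. Reads of line-defining hosts followed the labels: 5 of 15 epithelial markers, including Cdh1 and Epcam and the hotspot host Inadl, had reads in 4T1 (133) and Eph4-ev (500) against 3 in B16F10 and 2 in Melan-a. Melanocyte markers had reads at 8 of 12 hosts in B16F10 (617) and 9 of 12 in Melan-a (574), with 0 in 4T1 and 5 reads of Mitf in Eph4-ev. Sox10 had 0 reads in B16F10. Immune (8 genes) and fibroblast markers (10 genes) had 0 reads in all 4 lines. The labels do not say whether libraries of a line came from separate cultures, so p-values measure the spread between libraries, which may be technical.

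The number of isoforms read per hotspot host was compared first. At an equal depth of 15572 reads, a hotspot host had 4.88, 5.04 and 5.01 circRNAs with reads in the 4T1 libraries and 6.15, 6.43 and 6.17 in the Eph4-ev libraries. The groups did not overlap, with means of 4.98 ± 0.08 and 6.25 ± 0.16 (SD, n = 3; exact permutation test, two-sided p = 0.1, the smallest that 3 against 3 allows). The melanocyte lineage had the opposite order: B16F10 libraries gave 6.25, 6.02 and 6.04, and Melan-a libraries 5.12, 5.83 and 4.87, again without overlap (6.10 ± 0.13 and 5.28 ± 0.50; SD, n = 3; exact permutation p = 0.1). In the libraries as sequenced the melanocyte values overlapped (6.40 ± 0.38 and 6.16 ± 0.93; SD, n = 3; exact permutation p = 0.6). Counting there only circRNAs with at least 2 reads gave B16F10 minus Melan-a = -0.546 (exact permutation p = 0.3). Other hosts moved alongside: the tumour line held 0.796 times the isoforms of the non-tumour line in mammary hotspot hosts and 0.853 times in all other hosts, and 1.16 and 1.14 times in the melanocyte lineage.

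Hotspot hosts held 10.5, 11.1 and 10.97% of single-host junction reads in the 4T1 libraries and 12.7, 12.1 and 12.6% in Eph4-ev. In B16F10 they held 11.04, 11.5 and 11.1%, and in Melan-a 9.79, 10.2 and 9.57%. The tumour line was thus below its partner in the mammary lineage and above it in the melanocyte lineage, with no overlap in either (exact permutation p = 0.1 each). With membership at 20 or more circRNAs the melanocyte difference was -0.0124 percentage points.

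How evenly a host spread its reads was measured with the Simpson index, the chance in percent that 2 reads drawn from a host belong to the same circRNA. Each library value is the median over hosts. Over 22 hosts with at least 20 reads in every mammary library, it was 24.8, 24.9 and 24.3 in 4T1 and 29.0, 18.6 and 25.04 in Eph4-ev, and the groups overlapped (exact permutation p = 1). Over 21 such hosts in the melanocyte lineage it was 22.0, 23.3 and 21.5 in B16F10 and 29.1, 26.8 and 35.9 in Melan-a. Every B16F10 library thus had a smaller index than any Melan-a library (22.2 ± 0.9 against 30.6 ± 4.7; SD, n = 3; exact permutation p = 0.1). The median share of the most read circRNA over the same 21 hosts overlapped (37.2 ± 4.3% and 44.0 ± 6.4%, exact permutation p = 0.3). The mammary difference turned negative when 4T1 replicate 1 (-1.86) or Eph4-ev replicate 2 (-2.40) was left out.

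**Figure D2:**
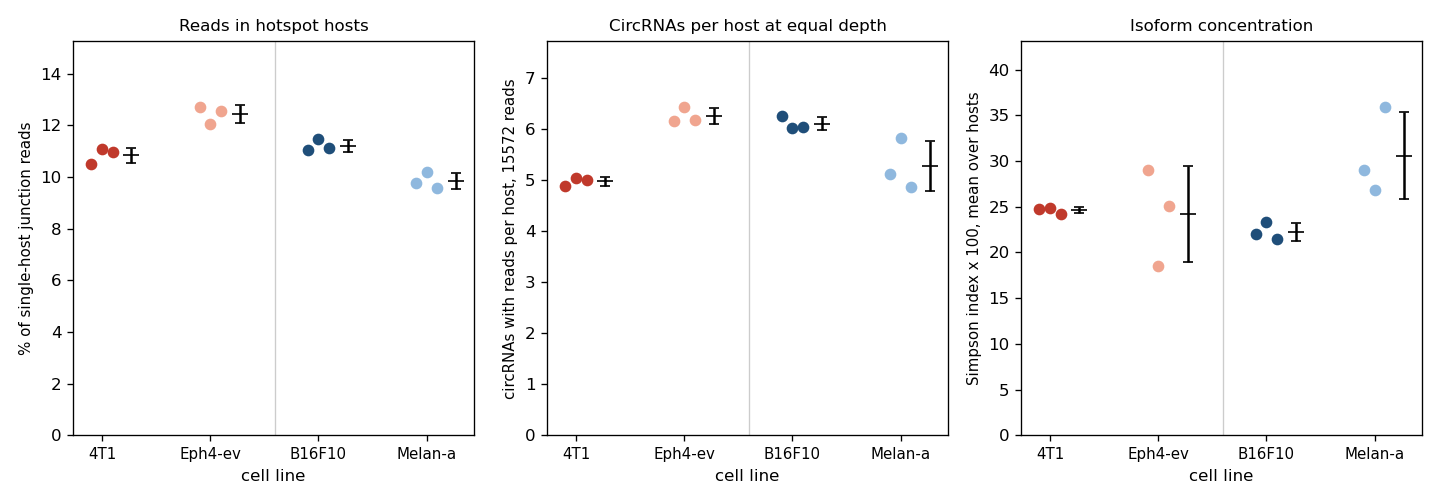
Library values over hotspot hosts: share of single-host junction reads (left), circRNAs with reads per host at equal depth (middle) and median Simpson index over hosts times 100 (right). The axis label of the right panel says mean, but the values are medians over hosts. Points are the 3 libraries of a line and bars the mean ± SD; 4T1 lies below Eph4-ev in the left and middle panels, and B16F10 above Melan-a.

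Summed over isoforms, the most read hotspot hosts differed between the mammary and melanocyte lines, but some hosts were high in all 4. Among the most read in 4T1 were Tns3 (9484 ± 1875 RPM, junction reads scaled to the same total in each library; SD, n = 3) and Arhgap10 (8585 ± 1131). In Eph4-ev they were Dtnb (14602 ± 1495 RPM), Tns3 (14157 ± 2219) and Arhgap10 (7325 ± 593). Among the most read in B16F10 were Dennd1b (7361 ± 422 RPM), a gene of a Rab35 exchange factor, and Tasp1 (6972 ± 721). In Melan-a, Tasp1 stood at 9817 ± 1283 and Dennd1b at 5784 ± 1317 RPM. Both were also high in 4T1 (6089 and 5225 RPM) and Eph4-ev (3673 and 5190). Rere stood at 5920 RPM in 4T1, 5961 in Eph4-ev, 5197 in B16F10 and 4617 in Melan-a. Tns3 and Arhgap10 stood at 1475 and 2181 RPM in B16F10 and at 816 and 1710 in Melan-a, and Dtnb at 2907 and 3820 in these lines.

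Between 4T1 and Eph4-ev, 8 of the 56 hotspot hosts tested were higher and 9 lower in 4T1 (edgeR quasi-likelihood test, adjusted p under 0.05). Over all 1515 hosts tested, 6.86% were higher and 10.6% lower. Hotspot hosts have more reads than other hosts, and the part of depth in their larger share was not tested. The counts include hosts such as Stk39 and Inadl, whose circRNAs were read mainly in the line where the host is higher. In bulk libraries, fewer cells with a ring and fewer rings per cell cannot be told apart, and linear RNA of the hosts was not analysed here. Scaling by total reads moved the median log2 fold of all hosts from -0.09 to 0.04 and that of hotspot hosts from -0.41 to -0.27, and gave 10 higher and 8 lower. Leaving out 1 library gave 2 to 6 higher and 4 to 10 lower, with the fewest lower without Eph4-ev replicate 2.

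Stk39, a kinase gene that acts on ion cotransporters, was read in every line but Eph4-ev. The 4T1 libraries gave 34, 38 and 125 Stk39 reads, and every Eph4-ev library 0. B16F10 gave 18, 20 and 21, and Melan-a 23, 27 and 11. Against a floor of 3 counts over the Eph4-ev libraries, Stk39 was at least 137-fold higher in 4T1 (edgeR adjusted p = 5.03e-07). It was chosen after its values were seen. Of 15 Stk39 circRNAs, 14 had reads in 4T1 and 6 in each melanocyte line, so the call of Stk39 is not independent of its membership.

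Nf2, the gene of the tumour suppressor merlin, gave 5, 7 and 18 reads per 4T1 library and 282, 237 and 292 per Eph4-ev library, which are far apart. The log2 fold of Nf2 came to -3.83 (SE 0.27; adjusted p = 1.38e-07, edgeR). In the melanocyte lines Nf2 was low in both, at 8, 9 and 11 reads for B16F10 and 9, 26 and 10 for Melan-a. Dtnb went from 696, 925 and 763 reads in Eph4-ev to 42, 58 and 174 (log2 fold -2.26; SE 0.18; adjusted p of edgeR 3.46e-07). Inadl, also known as Patj, encodes a tight junction scaffold and went from 76, 82 and 95 reads to 1, 11 and 11 (log2 fold -2.47; SE 0.47; adjusted p of edgeR 0.00239). All 16 Inadl circRNAs with reads were read in Eph4-ev and 4 in 4T1, so the call of Inadl is not independent of its membership. Among the hosts that were higher in 4T1, Stag1 counted 65, 52 and 160, and 63, 85 and 85 in the deeper Eph4-ev libraries (log2 fold 1.18, SE 0.23, adjusted p = 0.00266). Faf1, a gene of a ubiquitin-binding adaptor, counted 13, 35 and 57, and 15, 33 and 21 for Eph4-ev (log2 fold 1.55; SE 0.42; adjusted p = 0.0188), and Tbc1d1, a Rab GTPase-activating protein gene, 19, 24 and 48, and 25, 34 and 18 for Eph4-ev (log2 fold 1.21; SE 0.39, adjusted p = 0.0427).

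The calls of Nf2, Dtnb, Stk39, Stag1 and Vps50 (log2 fold -1.99) held under all 12 alternatives. Those of Inadl (adjusted p = 0.0528), Nbea (0.0529) and Tns3 (0.0603) were lost without Eph4-ev replicate 2. Eif4g3, a translation initiation factor gene (log2 fold -1.53), was lost without 4T1 replicate 3 (0.0535) or Eph4-ev replicates 1 (0.0736) or 2 (0.0821), and Agap1 without Eph4-ev replicates 1 (0.0534) or 2 (0.0873). Leaving out any library other than 4T1 replicate 1 ended the calls of Faf1 and Tasp1 (0.0627 to 0.0987 and 0.0785 to 0.169), and Ap3b1 without any but 4T1 replicate 3 (0.0847 to 0.238). Tbc1d1 (0.0767 to 0.182) and Rabgap1l (0.0593 to 0.186) were lost whichever library was left out. Without a filter, Agap1 (0.0754), Tasp1 (0.276), Tbc1d1 (0.159) and Rabgap1l (0.227) were lost, and scaling by total reads lost Ap3b1 (0.0629). Tbc1d1 and Rabgap1l were also lost with DESeq2 (0.0592 and 0.0703) and with replicate number as a block (0.0514 and 0.067).

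By function, counts are read beside the 6.86% higher and 10.6% lower of all hosts tested, and beside 14.3% and 16.1% of hotspot hosts. The 12 hosts of membrane traffic and lipid transfer counted 3 higher in 4T1 (Agap1, Rabgap1l and Tbc1d1) and 3 lower (Ap3b1, Nbea and Vps50), with a median log2 fold of -0.46 against -0.09 over all hosts. Of 6 hosts of cytoskeleton, adhesion and motors, 0 were higher and 3 lower (Dtnb, Inadl and Tns3), with a median of -1.13. Inadl is counted there although its membership rests on Eph4-ev. Of 8 kinase, phosphatase and signalling hosts, 1 was higher (Stk39) and 0 lower, with a median of 0.07. None of the 5 chromatin and transcription hosts (Ash1l, Chd2, Ehmt1, Ncor1 and Rere) passed. Neither did Birc6 or Trim37, the hosts on the ubiquitin list. That list leaves out Faf1, the gene of a ubiquitin-binding adaptor, which was called higher in 4T1. The lists were chosen with results of these data known and cover 37 of the 58 hosts.

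Between B16F10 and Melan-a, 2 of 55 hotspot hosts tested were higher and 2 lower in B16F10, beside 2.78% higher and 4.34% lower over 898 hosts. Scaling by total reads gave 2 higher and 1 lower and moved the median log2 fold of all hosts from -0.0015 to 0.11. Leaving out 1 library gave 1 to 4 higher and 0 to 3 lower, with the most of both without Melan-a replicate 2. Ash1l, a histone H3 lysine 36 methyltransferase gene, gave 77, 59 and 54 reads per B16F10 library and 32, 43 and 23 per Melan-a library, without overlap although Melan-a was sequenced more deeply (log2 fold 1.5, SE 0.26, edgeR adjusted p = 0.00427). This call held under all 12 alternatives. Cfap54, a gene of motile cilia, counted 104, 79 and 76, and in Melan-a 29, 97 and 20, where Melan-a replicate 2, the deepest melanocyte library, overlapped B16F10 in reads but not once scaled, at 2891 RPM against 4552 to 5197 in B16F10 (log2 fold 1.44, SE 0.39, adjusted p = 0.0449). All 16 Cfap54 circRNAs had reads in B16F10 and 7 in Melan-a, so the call of Cfap54 is not independent of its membership. Atp9b, a gene of a membrane ATPase, counted 18, 19 and 17, and in Melan-a 64, 61 and 72 (log2 fold -1.34, SE 0.30, adjusted p = 0.0154). Agap1, an Arf GTPase-activating protein gene, counted 29, 43 and 44, and in Melan-a 117, 137 and 97 (log2 fold -1.03, SE 0.27, adjusted p = 0.041).

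Cfap54 was lost without B16F10 replicates 1 (0.0974) or 2 (0.0826) or Melan-a replicates 1 (0.159) or 3 (0.121). Atp9b was lost without any B16F10 library (0.131, 0.065 and 0.0769) or without Melan-a replicates 1 (0.0575) or 3 (0.0712). Agap1 was lost without any B16F10 library (0.256, 0.107 and 0.0889) or without Melan-a replicates 1 (0.108) or 3 (0.0784). Scaling by total reads also lost Agap1 (0.0581).

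Cfap54 and Sox6, a transcription factor gene, had circRNAs listed in the melanocyte table alone. None of these circRNAs had a row in the mammary table, so their 0 reads there are missing rows and not observed counts. Sox6 counted 31, 20 and 12 across the B16F10 libraries and 14, 35 and 37 across those of Melan-a. Whether a host's fold between the lines differed between lineages was tested over hosts in both tables, a test added after the data were seen. Of 56 hotspot hosts 12 passed, beside 10% of 1325 hosts. Stk39, Nf2, Dtnb, Agap1, Ash1l, Tns3 and Tasp1 were among them, Tasp1 being lost without Eph4-ev replicate 1 (edgeR adjusted p = 0.0526) or B16F10 replicate 1 (0.0568). Agap1, for one, was higher in 4T1 (log2 fold 0.95) and lower in B16F10 (-1.03).

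**Figure D3:**
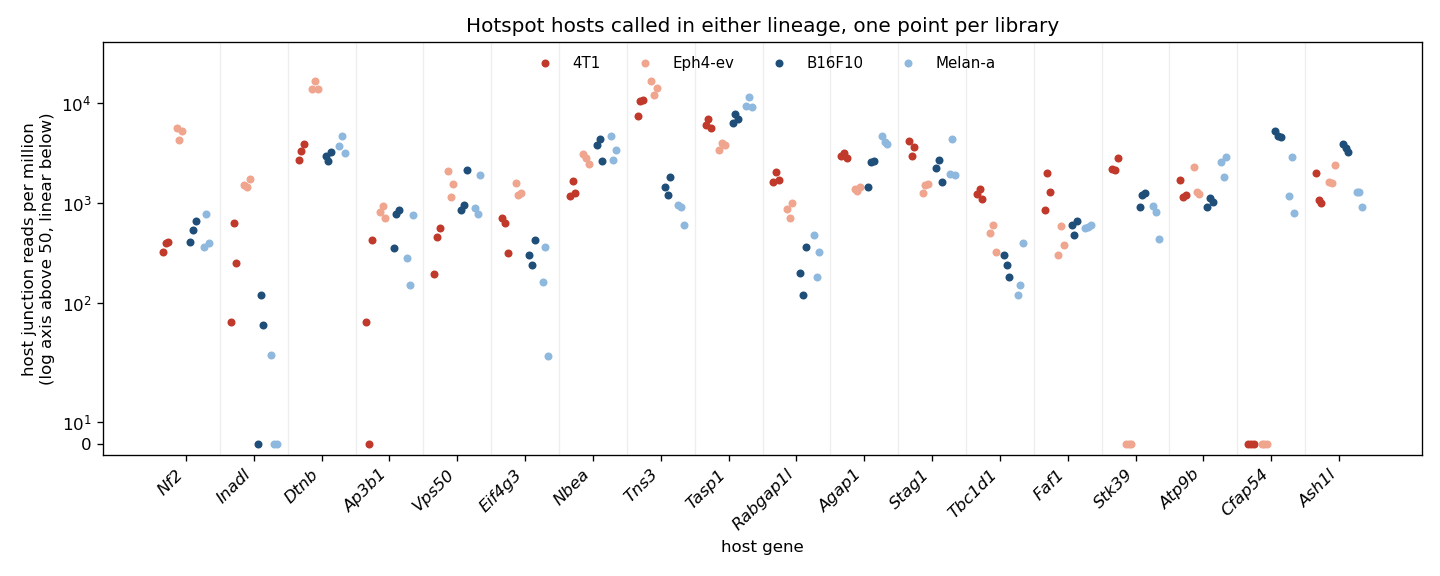
RPM of 18 hotspot hosts called in at least 1 lineage, 1 point per library, on an axis that is logarithmic above 50 and linear below. Stk39 lies at 0 in Eph4-ev. Cfap54 is drawn at 0 in both mammary lines because the mammary table does not list its circRNAs.

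Single circRNAs of these hosts were tested too. Of 210 in the mammary table, 16 were higher in 4T1 and 31 lower, beside 5.99% and 11.4% of all 1869. Scaling by total reads gave 21 higher and 26 lower and moved the median log2 fold of all circRNAs from -0.22 to -0.01. Leaving out 1 library gave 3 to 8 higher and 11 to 29 lower, with the fewest of both without Eph4-ev replicate 2. The calls came from 25 hosts, and in 5 of these (Mllt10, Pik3c2a, Rere, Tns3 and Trio) circRNAs of 1 host were called in opposite directions. In Tns3 the ring of exons 18 to 20 passed under all 12 alternatives, but that of exons 14 to 17 was lost in 8 of 12. In Pik3c2a the ring of exons 16 to 22 was lost in 8 of 12 and that of exons 6 to 9 in 2 of 12. In Trio the ring of exons 2 to 3 was lost in 9 of 11 and that of exons 10 to 11 in 7 of 11. In Mllt10 the ring of exons 15 to 17 was lost in 8 of 9 and that of exons 7 to 10 in 7 of 12. In Rere the ring of exons 2 to 3 was lost in 2 of 12, and those of exons 4 to 7 and 4 to 10 in 6 of 12 each. Of the tested circRNAs of Nf2 4 of 5 were lower, and of those of Dtnb 4 of 10. Among 108 tested in the melanocyte lineage, 5 were higher in B16F10 and 4 lower, beside 5.03% and 5.84% of 874, from 7 hosts and in no host both ways; scaling by total reads gave 8 higher and 3 lower. Leaving out 1 library gave 1 to 9 higher and 1 to 4 lower there, with the most of both without Melan-a replicate 2.

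Isoform switching, a change in the share of a host's reads among its circRNAs, was tested with edgeR's diffSpliceDGE on hosts with at least 2 circRNAs past the count filter. In the mammary lineage 10 of 46 hotspot hosts passed, beside 9.07% of all 375 hosts tested. Among them were Trio, Tns3, Dennd1b, Rere, Pik3c2a, Rabep1, Tasp1, Exoc4 and Vps50. In the melanocyte lineage 3 of 25 passed (Agap1, Kansl1 and Rabep1), beside 5.3% of 151. Hotspot hosts enter with more circRNAs and reads than other hosts, and the part of that in their share was not tested.

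Tns3 (adjusted p = 0.00357) changed its dominant ring. Exons 14 to 16 led in 4T1 with 61.4, 61.8 and 57.5% of reads, against 44.6, 39.1 and 43.3% in Eph4-ev, where exons 18 to 20 led in 2 of 3 libraries with 44.0, 49.3 and 47.9%. The ring of exons 14 to 17, on the acceptor of the first, stood at 5.76 ± 1.31% against 0.59 ± 0.44%. These 3 rings, of 4 Tns3 circRNAs tested, had library shares that did not overlap between the lines. Rings shown with sequences were picked partly for such shares, so the lack of overlap is no separate support. Exons 14 to 16 also led in B16F10 (68.3% of 79 reads) and Melan-a (63.8% of 69 reads).

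Trio, a gene of a guanine nucleotide exchange factor (adjusted p = 0.00333), had rings at separate places. That of exons 2 to 3 gave 8, 7 and 11 reads per Eph4-ev library and 0 of 73 Trio reads from 4T1, which allows a share of up to 4.11% for counting error. That of exons 10 to 11 gave 3, 6 and 27 reads per 4T1 library and 2, 0 and 2 per Eph4-ev library. Pik3c2a, a lipid kinase gene (adjusted p = 0.0138), had its exon 6 to 9 ring at 11.9 ± 3.8% in 4T1 and 42.3 ± 14.2% in Eph4-ev, and its exon 16 to 22 ring at 31.0 ± 4.3% and 9.46 ± 5.09% (SD, n = 3). Dennd1b (adjusted p = 0.0125) had its exon 10 to 14 ring at 24.2 ± 4.9% in 4T1 and 5.33 ± 2.55% in Eph4-ev, while its rings of exons 6 to 9 overlapped between the lines. Rere (adjusted p = 0.0125) had its ring of exons 2 to 3 at 17.8, 15.7 and 3.61% in 4T1 and at 0, 0 and 0.79% in Eph4-ev.

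Rabep1, a gene of a Rab5 effector, passed in both lineages with the same ring dominant in all 4 lines. Exons 3 to 4, across the start codon, held 48.7, 41.4 and 35.8% of reads for 4T1 and 70.2, 72.5 and 75.2% in Eph4-ev. B16F10 stood at 44.7 ± 4.6% and Melan-a at 78.2 ± 14.6% (SD, n = 3), so in both lineages it was smaller in each tumour library than in any non-tumour library. The longer rings on the same acceptor, exons 3 to 5 and 3 to 6, stood at 16.6 ± 12.4% and 13.9 ± 1.4% in 4T1 against 6.25 ± 2.38% and 7.19 ± 3.801% in Eph4-ev. In B16F10 they stood at 16.5 ± 6.9% and 16.2 ± 7.6% against 4.40 ± 5.47% and 5.43 ± 2.64% in Melan-a. The adjusted p of edgeR's switching test was 0.0141 in the mammary and 0.0155 in the melanocyte lineage. Both calls were lost by the Simes method (0.275 mammary and 0.475 melanocyte) and without a filter (0.156 and 0.104). The mammary call was also lost with replicate number as a block (0.126).

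Agap1 switched in the melanocyte lineage (adjusted p = 0.0107) through a ring of exons 6 to 8. The Melan-a libraries gave 19, 12 and 24 reads of it and the other 9 libraries 0 each, and 0 of 116 Agap1 reads in B16F10 allow a share of up to 2.59%. Kansl1, a gene of a histone acetyltransferase complex (adjusted p = 0.0107), had a ring at chr11:104423922-104426468 whose ends match no single annotated transcript. It held 25.4 ± 6.6% of Kansl1 reads in B16F10 and 2.33 ± 4.03% in Melan-a, with 25, 11 and 20 reads against 6, 0 and 0. Eph4-ev libraries gave 28, 27 and 19 reads of the same ring, and those of 4T1 gave 5, 0 and 0.

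Arhgap10, the host with the most isoforms, did not pass edgeR's switching test in any of the 4 comparisons made (adjusted p = 0.0664 mammary, 0.149 melanocyte, 0.0627 between the non-tumour and 0.0847 between the tumour lines). Its ring of exons 14 to 18 stood at 25.9 ± 12.8% for B16F10 and 35.5 ± 4.0% for Melan-a (SD, n = 3). The ring of exons 2 to 3 did not overlap between them, at 22.7 ± 6.0% and 6.06 ± 4.07%, but the host as a whole did not pass. A p that misses the threshold does not show that the shares are equal.

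Leaving out 1 library gave 1 to 12 switching hosts in the mammary and 0 to 6 in the melanocyte lineage, with 1 without Eph4-ev replicate 2 and 6 without Melan-a replicate 2. Trio and Tns3 were lost without Eph4-ev replicate 2 (0.0808 each), Rere without Eph4-ev replicates 1 (0.0781) or 2 (0.0808), and Dennd1b without any Eph4-ev library (0.0599, 0.132 and 0.122). With replicate number as a block, Tns3 (0.0613), Dennd1b (0.0613), Rere (0.139) and Pik3c2a (0.0624) were among those lost. Pik3c2a and Rabep1 were lost without 4T1 replicate 3 (0.169 and 0.196) or any Eph4-ev library (0.0872 to 0.197 and 0.115 to 0.183). Tasp1 was lost whichever library was left out (0.0997 to 0.344), Exoc4 without any but 4T1 replicate 1 (0.0628 to 0.166), and Vps50 under all 10 alternatives run (0.0554 to 0.387). In the melanocyte lineage Agap1, Kansl1 and Rabep1 were lost without any B16F10 library (0.0638 to 0.271, 0.127 to 0.271 and 0.229 to 0.271) or Melan-a replicate 3 (0.0855, 0.0544 and 0.164), Rabep1 also without Melan-a replicate 1 (0.0698). With limma-voom they were 0.294, 0.294 and 0.0662.

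**Figure D4:**
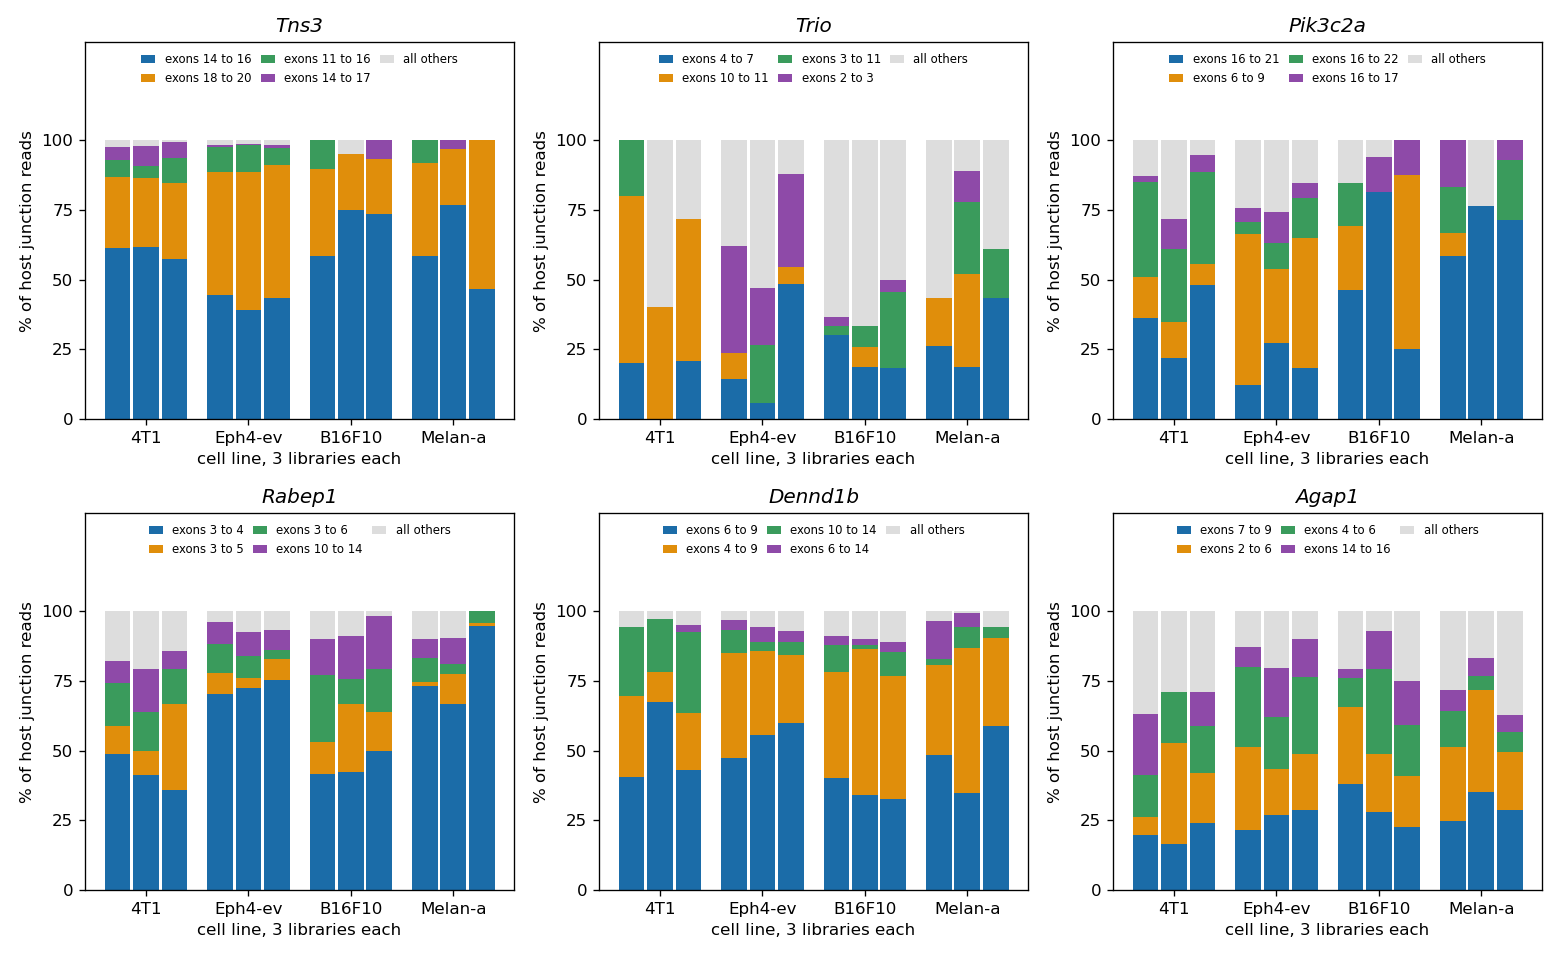
Share of host junction reads in the 4 leading circRNAs of 6 switching hosts, 1 bar per library. The Rabep1 ring of exons 3 to 4 is smaller in both tumour lines, and the Tns3 ring of exons 14 to 16 holds 57.5 to 61.8% of reads in 4T1 and 39.1 to 44.6% in Eph4-ev.

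Across tables, the lines of like state were compared on circRNAs listed in both. These comparisons use the same libraries as those above. Between Eph4-ev and Melan-a 3 of 36 hotspot hosts passed (Pik3c2a, Stag1 and Rere), beside 11.7% of 298. Pik3c2a (adjusted p = 0.00368) had its exon 6 to 9 ring at 42.3 ± 14.2% in Eph4-ev and 2.78 ± 4.81% in Melan-a, and its exon 16 to 21 ring at 19.3 ± 7.5% and 68.7 ± 9.4% (SD, n = 3). Stag1 (adjusted p = 0.0183) had its ring of exons 2 to 4 at 25.2 ± 7.9% in Eph4-ev and 65.0 ± 4.4% in Melan-a. Pik3c2a was lost without Melan-a replicate 3 (0.0606), Stag1 without Eph4-ev replicates 2 (0.0873) or 3 (0.127), and Rere without any Eph4-ev library (0.153, 0.27 and 0.0583) or without Melan-a replicates 2 (0.336) or 3 (0.16). By the Simes method Stag1 (0.133) and Rere (0.0681) were lost as well.

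Between 4T1 and B16F10 4 of 22 passed, Dennd1b, Stk39 and Kansl1 among them, beside 13.8% of 109. Dennd1b (adjusted p = 0.00219) had its exon 4 to 9 ring at 20.1 ± 9.0% in 4T1 and 44.8 ± 7.1% in B16F10, and its exon 10 to 14 ring at 24.2 ± 4.9% and 6.55 ± 4.39%. Stk39 (adjusted p = 0.0385) had its exon 2 to 5 ring at 9.69 ± 12.06% in 4T1 and 53.7 ± 11.6% in B16F10 (SD, n = 3). Dennd1b was lost without B16F10 replicate 3 (0.0525), Stk39 without 4T1 replicate 2 (0.0747) or B16F10 replicates 1 (0.0769) or 3 (0.25), and Kansl1 without 4T1 replicates 2 (0.108) or 3 (0.0541) or any B16F10 library (0.236, 0.089 and 0.246). The Simes method also lost Stk39 (0.278) and Kansl1 (0.0804), and replicate number as a block lost Kansl1 (0.0652).

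The dominant circRNA, the most read of a host in a line, was defined for hosts with at least 20 reads there: 51 hosts in 4T1, 55 in Eph4-ev, 50 in B16F10 and 54 in Melan-a. Its median share was 39.4, 34.7, 39.0 and 35.3% in that order, and shares ran from 12.9% to 79.1%, the highest being Rabep1 in Melan-a. It held over 50% of reads in 13, 17, 16 and 16 hosts. Dominance was often unsteady, since the dominant circRNA led in all 3 libraries in 15, 32, 24 and 18 hosts.

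In 24 of 50 hosts the dominant circRNA differed between 4T1 and Eph4-ev, with 1 end shared in 7, and in 12 of 50 it differed between B16F10 and Melan-a, with 1 end shared in 5. Many of these changes were between near-equal isoforms and were not tested as such. Arhgap10 was led by exons 16 to 18 in 4T1 (142 reads against 126 of exons 14 to 18) and by exons 14 to 18 in Eph4-ev (267 against 221). Nbas was led by exons 41 to 44 in B16F10 and by exons 43 to 44 in Melan-a, there by 38 reads against 37. Mkln1, a gene of a ubiquitin ligase complex, was led by exons 2 to 6 in B16F10 (60 reads against 24) and by exons 7 to 9 in Melan-a (47 against 46).

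Of 43 hosts with at least 20 reads in each of the 4 lines, 16 had 1 dominant circRNA throughout, 18 had 2, 8 had 3 and 1 had 4. Dtnb was among the steady ones: exons 5 to 8 held 58.4% of its reads in 4T1, 63.4% in Eph4-ev, 70.5% in B16F10 and 70.3% in Melan-a and led in every library, although Dtnb itself was lower in 4T1. Mllt10, a gene of a cofactor of the methyltransferase DOT1L, was the host with 4. Its leaders were exons 7 to 10 in 4T1, 4 to 10 in Eph4-ev, 4 to 9 in B16F10 (tied) and 5 to 9 in Melan-a, with shares of 19.9, 20.1, 14.4 and 32.3%. Mllt10 was also uneven between libraries of a line, as its ring of exons 4 to 10 had 23, 35 and 0 reads in Eph4-ev.

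Such unevenness touched other isoforms. Of circRNAs with at least 20 reads in some library of a line, 6 of 59 in 4T1, 4 of 99 in Eph4-ev, 0 of 25 in B16F10 and 1 of 40 in Melan-a had 0 reads in another library of that line. Those in 4T1 belonged to Arhgap10, Ehmt1, Mllt10, Rere and Stk39.

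**Figure D5:**
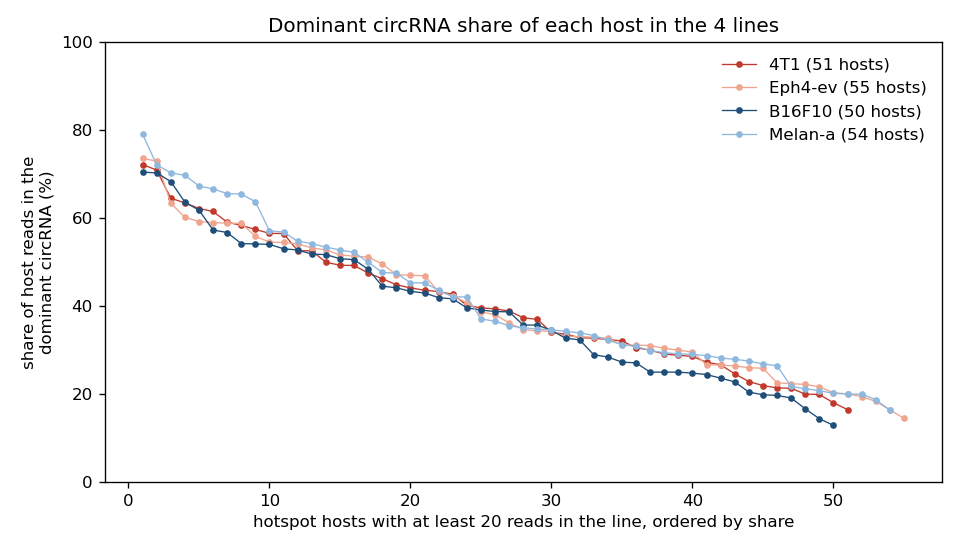
Share of a host's reads held by its dominant circRNA, hosts ordered by share within each line, for hosts with at least 20 reads in the line. The 4 curves run close together, from 70.5 to 79.1% at the top to 12.9 to 16.5% at the bottom.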

How the data were processed

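RNase R-treated RNA of 4 mouse lines was sequenced, with 3 libraries per line. Per the labels' protocols, circRNAs were detected with CIRI2 (BWA-MEM) and CIRCexplorer2 (TopHat, TopHat-Fusion). Coordinates are mm10 (build per the submitters' processing notes; the notes list DESeq, DESeq2 and edgeR but give them no role). How callers were combined and filtered is not given in the sources used here. Per the file headers, the count columns deposited by the authors hold raw junction reads. The deposited RPM columns divide each count by its column total: 100% of values gave whole reads within 0.01, so the deposited counts were tested and RPM values only describe levels. Per-sample columns without a sample numbered 0.

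Host values are sums over single-host circRNAs. Rows with several hosts (160 mammary, 201 melanocyte) were left out of them. Tests used edgeR 4.0.16 (glmQLFTest after TMM scaling; features kept by filterByExpr at min.count 5 and min.total.count 10; Benjamini-Hochberg over all features) in R 4.3.3 and its diffSpliceDGE for isoform shares. Fold changes are tumour minus non-tumour line. Bounds for lines at 0 reads use a floor of 3 counts over the line and total-read scaling; limits cover counting error only. Equal-depth counts are expected values on drawing 15572 reads. Exons come from GENCODE M21, in which 58 of 58 hosts were found, 1 under another symbol. Alternatives were RLE and total-read scaling, unfiltered features, min.count 10, DESeq2 1.42.0, limma 3.58.1, Simes, replicate blocks, other membership and read minimums, and leaving out each library. The tests were checked on simulated data.

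Members, lists and tests were chosen with earlier results of these data known. Named were the 12 hosts with most circRNAs, the 3 most read per line, the 6 with the smallest switching p per lineage, up to 3 called hosts per direction with the largest fold among those averaging 5 or more reads in each line, and the 4 most read hosts per lineage whose dominant circRNA differed. Results of some hosts are not reported here.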

Additional observations from a re-analysis of the deposited data

Results flagged for a closer look

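The fold of host reads between the lines differed between the lineages in 12 of 56 hosts, among them those below, by edgeR's test of the difference itself (adjusted p under 0.05; 10% of all 1325 hosts tested passed). The values below are the log2 fold of 4T1 over Eph4-ev minus that of B16F10 over Melan-a, and the test was added after the data were seen. Stk39 stood at 8.57, which rests on a line with 0 reads, so its size depends on the prior count of the fit. Nf2 stood at -3.76 (SE 0.54), Dtnb at -1.79 (SE 0.32), Tns3 at -1.47 (SE 0.35) and Vps50 at -2.06 (SE 0.62). Agap1 stood at 1.96 (SE 0.38), from folds of 0.95 and -1.03, and Ash1l at -2.16 (SE 0.44), from folds of -0.65 and 1.5. Tasp1 stood at 1.15 (SE 0.28) and Stag1 at 1.61 (SE 0.45). Cdk5rap2, a centrosome gene, stood at -3.88 (SE 1.03), from 6, 3 and 0 reads in 4T1, 29, 28 and 33 in Eph4-ev, 21, 18 and 17 in B16F10 and 3, 4 and 16 in Melan-a. Atp6v1h, a subunit gene of the vacuolar proton pump, stood at -1.95 (SE 0.56).

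Leaving out each of the 12 libraries in turn gave between 9 and 15 such hosts. Tasp1 was lost without Eph4-ev replicate 1 (adjusted p = 0.0526) or B16F10 replicate 1 (0.0568), and Atp6v1h without Melan-a replicate 1 (0.0546) or B16F10 replicate 2 (0.0921). Vps50 was lost without 4T1 replicate 1 (0.0676), Eph4-ev replicate 1 (0.0939), Melan-a replicate 1 (0.0596) or B16F10 replicate 3 (0.137). Stag1 was lost without any of 7 libraries, with adjusted p from 0.0543 (without 4T1 replicate 3) to 0.119 (without Melan-a replicate 2).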

How the results depend on the processing

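Of the 21 called host folds, none changed sign under any of the 12 alternatives each, and 64 of 252 fits lost the call, as did 93 of 210 fits of the switching calls. With no filter, 3 hotspot hosts were higher in 4T1 in place of 8, 8 circRNAs in place of 16, and 3 circRNAs were higher and 2 lower in B16F10 in place of 5 and 4. With total reads alone, 1 host was lower and 8 circRNAs higher in B16F10, and the mammary circRNAs split 21 higher to 26 lower. DESeq2 called 2 circRNAs higher and 2 lower in B16F10. Switching calls numbered 6 by Simes in the mammary lineage, 0 by limma-voom in the melanocyte lineage (3 at unadjusted p under 0.05; 3 adjusted and 5 unadjusted by edgeR), 1 by Simes and 5 by limma-voom between the non-tumour lines, and 2 by Simes between the tumour lines. Deviations of same-numbered libraries correlated at -0.057 to 0.07 across circRNAs, and those of differently numbered libraries at -0.122 to 0.108. The labels do not say whether the numbers pair samples, and these correlations cannot settle it. With replicate number as a block, 10 circRNAs were higher in 4T1, 1 lower in B16F10, and 2 hosts switched in the mammary lineage.

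Leaving out 1 library gave 2 to 6 hosts higher and 4 to 10 lower in 4T1, 1 to 4 higher and 0 to 3 lower in B16F10, 3 to 8 and 11 to 29 circRNAs in 4T1, and 1 to 9 and 1 to 4 in B16F10. Switching calls ran from 1 to 12, 0 to 6, 1 to 5 and 1 to 12 (mammary, melanocyte, non-tumour and tumour lines). Differences in read share ran from -1.79 to -1.43 (mammary) and 1.24 to 1.54 percentage points (melanocyte), in isoforms per host from -1.33 to -1.18 and 0.628 to 1.10, and in the Simpson index from -2.40 to 2.82 and -8.88 to -4.81. The mammary Simpson difference of 0.42 reversed with membership at 10 or more (-3.96), with 50 reads per host (-2.65), with the dominant share (-1.59), without 4T1 replicate 1 (-1.86) and without Eph4-ev replicate 2 (-2.40). The melanocyte read share reversed with membership at 20 or more (-0.0124), and isoforms per host with at least 2 reads (-0.546). The cause was not tested. Cross-table tests without a filter were not run. Of the 1116 circRNAs, 619 had fewer than 10 reads over the 12 libraries, which limits what can be told of them.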

Other observations

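CircRNAs that the tables assign to a hotspot host together with another gene were left out of the host sums. There were 9 of them in the mammary and 10 in the melanocyte table, at Dennd1b, Itpr2, Mad1l1, Nbea, Pik3c2a and Rabgap1l. They held 27 reads in 4T1, 100 in Eph4-ev, 24 in B16F10 and 33 in Melan-a.

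The dominant circRNAs of hotspot hosts were short rings in all 4 lines. Their median was 3 exons, with a median spliced length of 374 nt in 4T1, 384 nt in Eph4-ev, 480 nt in B16F10 and 379 nt in Melan-a. The start codon lay within 8 of 51, 9 of 55, 9 of 50 and 8 of 54. Among those made of coding exons alone, the spliced length was a multiple of 3 in 17 of 41, 16 of 43, 18 of 39 and 18 of 44.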
